A study of Rattus norvegicus with 9 samples.

Results

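The integrated stress response and the unfolded protein response were followed in rat chondrocytes, the matrix-forming cells of cartilage, through 46 genes chosen by name out of the 18924 genes of the expression table. Of these, 30 belong to the arm driven by the transcription factor ATF4 (called here the ATF4 arm), 12 to the arm that folds and clears proteins in the endoplasmic reticulum (ER), and 4 encode sensors that start these responses. All but Nupr1 matched a row of the table by symbol, and 44 passed the filter on low counts, since Cbs did not. Primary chondrocytes of Sprague-Dawley (SD) rats at passage 1 or 2 were sampled at 24 h. The RP group (n = 3) had rat plasma only, the RPT group (n = 3) plasma and thrombin, and the RPTi group (n = 3) plasma, thrombin and an unnamed inhibitor. Every group thus received rat plasma, and no group received the inhibitor without thrombin, so an action of the inhibitor on its own and an action on the thrombin response cannot be told apart. Separate animals or cultures are not stated for the replicates. The p-values therefore reflect the spread among the libraries of a group, which could be purely technical.

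In the integrated stress response, kinases such as PERK (Eif2ak3), which senses unfolded protein in the ER, and GCN2 (Eif2ak4), which senses uncharged tRNA, phosphorylate the translation factor eIF2. Most translation then slows while the mRNA of ATF4 is translated more, and ATF4 switches on genes of amino acid synthesis, amino acid import and feedback. The other ER sensors, IRE1 (Ern1) and ATF6, act through the factors XBP1 and ATF6 on chaperones and on the machinery that removes misfolded proteins. Chondrocytes secrete large amounts of collagen and proteoglycan and therefore carry a high folding load in the ER. Read counts per gene show neither the translation of Atf4 nor the splicing of Xbp1 by which these factors are activated.

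The libraries held 31877265 to 43962783 counts, and correlations of log2 CPM (counts scaled to the library total) were 0.988 to 0.991 within groups and 0.965 to 0.981 between groups. The sampled cells carried the chondrocyte markers throughout, Col2a1 and Acan being the most abundant: the 10 markers summed to between 47545 and 48587 CPM in RP, between 29852 and 31680 in RPT and between 73378 and 79577 in RPTi, without overlap. Of 8 macrophage and blood cell markers, 6 matched a row, and their sum was between 24.3 and 28.5 CPM in RP, between 45.3 and 46.8 in RPT and between 25.3 and 29.5 in RPTi. Cd14 and Cd68 were their most abundant members, and the cause of the higher sum in RPT was not tested. Endothelial markers (5 of 6 matched, Plvap and Tek the most abundant) summed to at most 4.31 CPM in any library, and the 7 muscle and fat markers, led by Des and Fabp4, to at most 40.5 CPM.

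On the scale of FPKM, which divides counts by gene length, the ER folding arm held the most abundant members. Calreticulin (Calr), a calcium-binding ER chaperone, had a mean of 1019.7 FPKM over the 9 libraries, and the main ER chaperone BiP (Hspa5) had 444 FPKM. Atf4 itself, at 429.6 FPKM, was the most abundant member of the ATF4 arm, ahead of the related factor Atf5 (268 FPKM) and the translation repressor Eif4ebp1 (238 FPKM). Atf3 was low at 3.29 FPKM, the sensor Eif2ak4 had 3.56 FPKM, and the proline synthesis gene Aldh18a1 and the cystathionine synthase gene Cbs were lowest at 0.299 and 0.0217 FPKM. Whether the gene model counted for Aldh18a1 is complete was not checked.

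The arms moved apart with thrombin. In RPTi both had a median above that in plasma alone, but for the ER folding arm by only 0.14 on the log2 scale. In RPT against RP, 20 of the 28 tested ATF4 arm genes rose and none fell, against 13.6% of all 13856 tested genes that rose and 15.2% that fell (edgeR's quasi-likelihood test, Benjamini-Hochberg adjusted p below 0.05). The ER folding arm went the other way, with 0 of 12 genes rising and 4 falling. In RPTi against RPT, where 20.4% of all genes rose and 21.1% fell, 7 ER folding genes rose and none fell, while 11 ATF4 arm genes rose and 3 fell. Set against plasma alone, RPTi cells had 24 ATF4 arm genes higher and none lower, and 6 ER folding genes higher and none lower (11.9% of all genes rose and 12.3% fell). The members and arms were chosen with earlier results of these data known, so these counts are descriptions beside the shares of all genes. In bulk samples, a change in the number of cells of one kind and a change of RNA per cell cannot be told apart.

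Median log2 fold changes gave the same order. The ATF4 arm stood at 0.48 in RPT against RP, 0.14 in RPTi against RPT and 0.63 in RPTi against RP, and the ER folding arm at -0.17, 0.29 and 0.14, where the medians of all tested genes were -0.00, -0.01 and -0.01. The contrasts share libraries, so these values stand side by side without a test between them. In the single libraries, the median of the centred log2 CPM of the ATF4 arm was between -0.41 and -0.29 in RP, between 0.09 and 0.21 in RPT and between 0.25 and 0.30 in RPTi. That of the ER folding arm was between -0.06 and 0.03 in RP, between -0.20 and -0.13 in RPT and between 0.13 and 0.21 in RPTi. Neither arm had overlapping groups on this scale. Tested across the 3 groups at once, 25 of 28 ATF4 arm genes (89.3%) and all 4 sensors differed, against 46.7% of all tested genes. In the ER folding arm 7 of 12 genes (58.3%) differed, not far above that share.

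**Figure D1:**
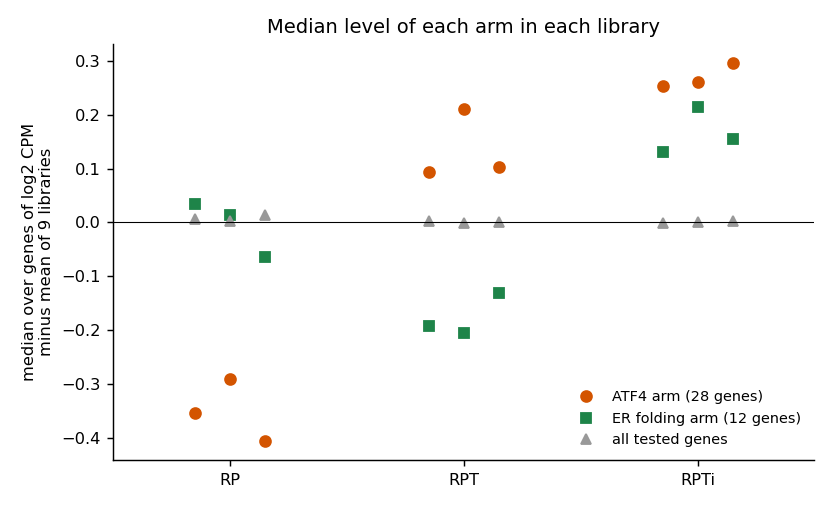
Median level of each arm in the 9 libraries (points), as the median over genes of log2 CPM minus the gene's mean over the 9 libraries, with groups on the horizontal axis; grey triangles give all 13856 tested genes. The ATF4 arm is lowest in RP and highest in RPTi, while the ER folding arm is lowest in RPT, between -0.20 and -0.13.

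**Figure D2:**
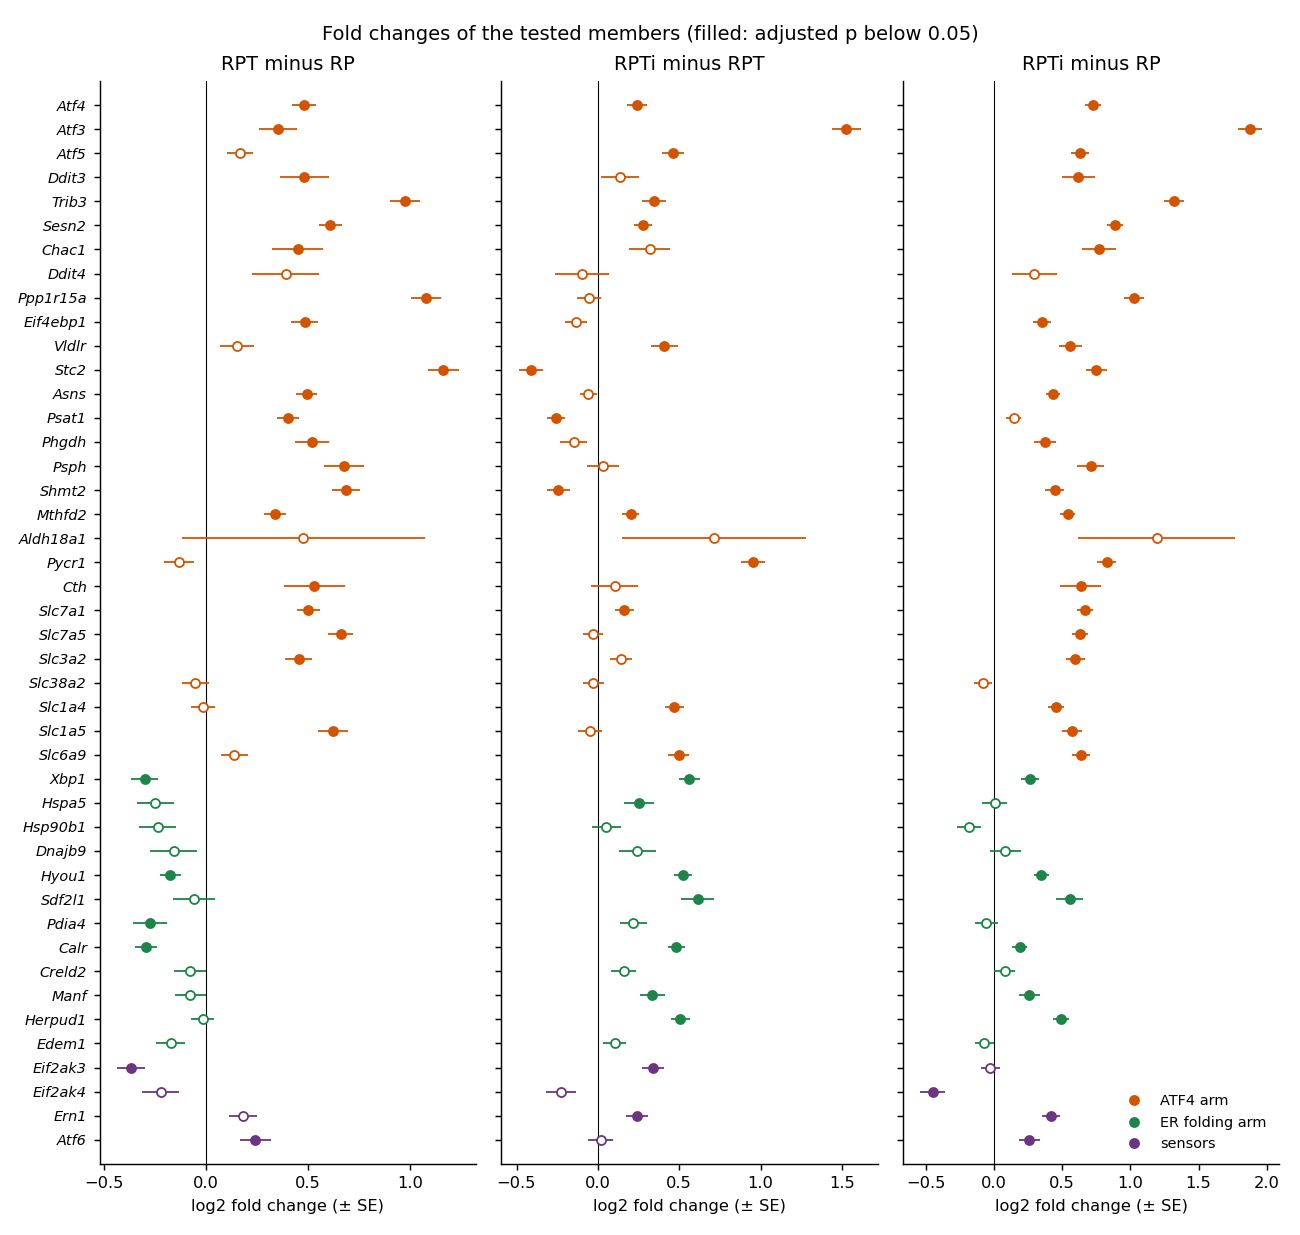
Log2 fold change (horizontal axis, bars are SE) of the 44 tested members in the 3 contrasts, coloured by arm; filled points passed the threshold of 0.05 on the adjusted p. With thrombin, filled points of the ATF4 arm lie to the right of 0 and those of the ER folding arm to the left.

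Among the transcription factors of the ATF4 arm, Atf4 rose with thrombin and was higher again with the inhibitor. Its level was 615, 647 and 596 CPM in RP, 866, 918 and 812 in RPT and 983, 1030.3 and 1053 in RPTi, so each group lay above the one before with no overlap. The log2 fold change was 0.48, SE 0.06, adjusted p = 6.08e-05 for RPT against RP, and 0.24, SE 0.06, adjusted p = 0.00548 for RPTi against RPT. Atf3, a repressor induced by many stresses, was at 5.02, 4.85 and 4.75 CPM in RP, 6.54, 5.97 and 6.16 in RPT and 17.3, 17.991 and 18.5 in RPTi. The thrombin step was small (log2 fold change 0.35, SE 0.09, adjusted p = 0.0128). It did not pass without RPT replicate 1 (adjusted p = 0.0523) or with the RP and RPT libraries alone (adjusted p = 0.0536). RPTi lay 2.88-fold above RPT (log2 fold change 1.53, SE 0.09, adjusted p = 3.42e-08), the largest change of any member in that contrast. CHOP (Ddit3), the factor tied to cell death after lasting ER stress, was at 26.3, 27.0 and 28.8 CPM in RP, 37.1, 41.0 and 36.6 in RPT and 33.0, 43.959 and 49.1 in RPTi. Ddit3 rose with thrombin (log2 fold change 0.48, SE 0.12, adjusted p = 0.00918). Its RPTi libraries spread from 33.0 to 49.1 CPM and overlapped those of RPT (log2 fold change 0.14, SE 0.12, adjusted p = 0.389). Without RPTi replicate 1, the lowest, this difference passed (log2 fold change 0.28, adjusted p = 0.0303). Atf5 did not pass in RPT against RP (0.17, SE 0.06, adjusted p = 0.0716) but was higher in RPTi than in RPT (log2 fold change 0.46, SE 0.06). Its thrombin difference passed in 4 of 16 alternatives. They were library totals alone (adjusted p = 0.0353), limma on log2(FPKM + 1) (adjusted p = 0.0433), a replicate block (adjusted p = 0.031) and the fit lacking RPT replicate 1 (adjusted p = 0.0279).

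Genes that carry out or restrain the response held the largest thrombin rises of all members. Stc2, which encodes the secreted glycoprotein stanniocalcin 2, was at 32.4, 35.7 and 31.0 CPM in RP, 74.0, 78.6 and 69.4 in RPT and 56.0, 53.3 and 57.4 in RPTi. It rose 2.24-fold with thrombin (log2 fold change 1.16, SE 0.08, adjusted p = 3.15e-07) and fell in RPTi against RPT (log2 fold change -0.41, SE 0.07, adjusted p = 0.000662), while staying above RP in each RPTi library. Ppp1r15a (GADD34), the phosphatase subunit that reverses eIF2 phosphorylation, was at 93.2, 103 and 91.3 CPM in RP, 188, 205 and 214 in RPT and 207, 183 and 194 in RPTi. It rose 2.11-fold with thrombin (log2 fold change 1.08, SE 0.07, adjusted p = 4.5e-07), and RPT and RPTi overlapped (log2 fold change -0.06, SE 0.07, adjusted p = 0.573). Trib3, a pseudokinase that restrains ATF4, was at 81.2, 93.8 and 81.6 CPM in RP, 161, 183 and 161 in RPT and 219, 203 and 219 in RPTi. Trib3 rose at both steps, 1.97-fold in RPT against RP (log2 fold change 0.98, SE 0.07, adjusted p = 1.31e-06) and 1.27-fold in RPTi against RPT (log2 fold change 0.35, SE 0.07, adjusted p = 0.00231).

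Sesn2, a leucine-sensing inhibitor of mTORC1, had the same order of groups as Trib3, at 113, 117 and 114 CPM in RP, 166, 182 and 177 in RPT and 209, 208 and 219 in RPTi. It rose in RPT against RP (log2 fold change 0.61, SE 0.06, adjusted p = 5.47e-06) and again in RPTi against RPT (log2 fold change 0.28, SE 0.06, adjusted p = 0.00154). Chac1, which degrades glutathione, was at 39.7, 39.2 and 41.1 CPM in RP, 59.2, 60.5 and 44.2 in RPT and 56.5, 75.2 and 72.6 in RPTi. RPT replicate 3 lay well below the other RPT libraries. The thrombin call (log2 fold change 0.45, SE 0.12, adjusted p = 0.0166) was lost without RP replicate 1, RP replicate 2, RPT replicate 1 or RPT replicate 2 (adjusted p = 0.0516, 0.0503, 0.0638 and 0.0611). RPTi was higher than RP (log2 fold change 0.77, SE 0.12, adjusted p = 0.000706). Against RPT it did not pass (0.32, SE 0.12, adjusted p = 0.0557), except in 5 of 16 alternatives. Among these were DESeq2, a replicate block (adjusted p = 0.0468) and the fits without RPT replicate 2 and without RPTi replicate 1. Eif4ebp1, which restrains cap-dependent translation, rose with thrombin (log2 fold change 0.48, SE 0.07, adjusted p = 0.000187) and did not pass in RPTi against RPT, except in 3 of 16 alternatives. Among these were library totals alone (-0.20, adjusted p = 0.0228) and a replicate block (-0.13, adjusted p = 0.0168). The lipoprotein receptor gene Vldlr did not pass with thrombin (0.15, SE 0.08, adjusted p = 0.207) and was higher in RPTi than in RPT (log2 fold change 0.41, SE 0.08). Without RPT replicate 2 its thrombin difference passed (log2 fold change 0.24, adjusted p = 0.0381). The mTORC1 inhibitor gene Ddit4 passed in no contrast, with all 3 groups overlapping (log2 fold change 0.39, SE 0.17, adjusted p = 0.098 for RPT against RP). That thrombin difference passed with DESeq2 (adjusted p = 0.0412) and without RPT replicate 3 (log2 fold change 0.57, adjusted p = 0.00902).

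**Figure D3:**
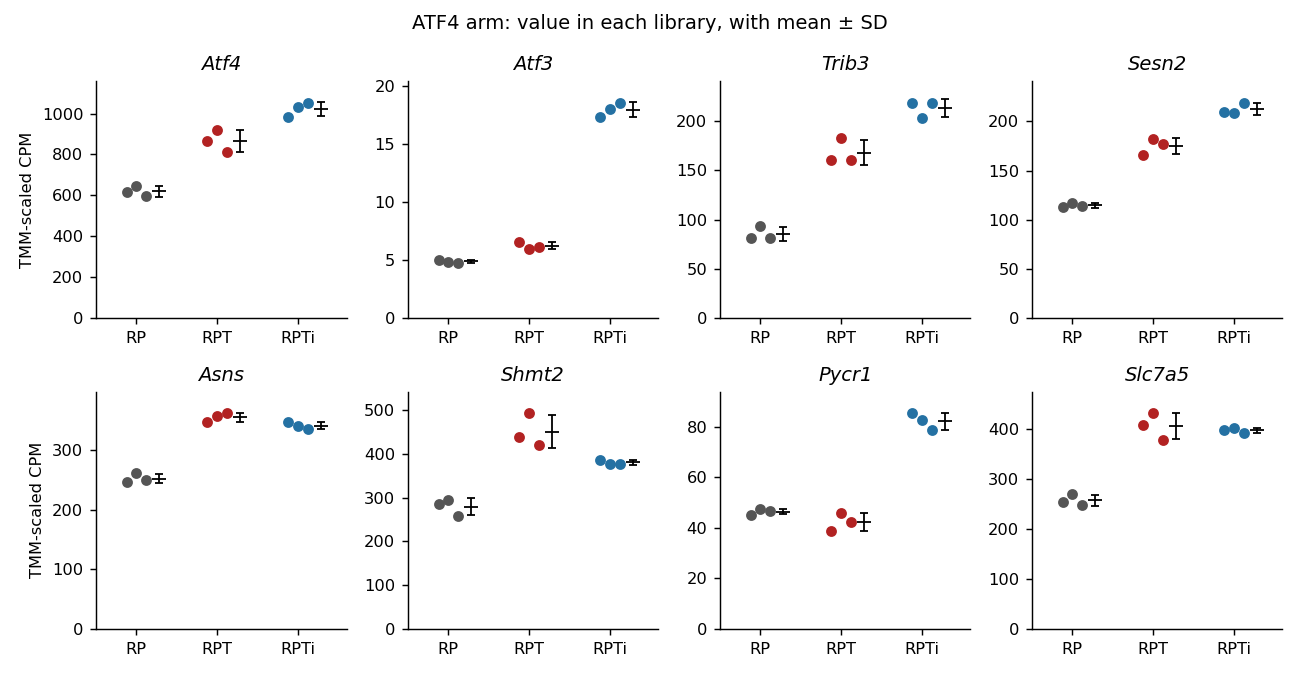
TMM-scaled CPM (vertical axis, from 0) of 8 ATF4 arm genes in each library of RP, RPT and RPTi (points), with the mean and SD of each group in black. Atf4, Trib3 and Sesn2 step up from RP to RPT to RPTi, Shmt2 peaks in RPT, and Pycr1 is high in RPTi alone among the groups, at 78.6 to 85.3 CPM.

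Amino acid synthesis genes rose with thrombin in 7 of 9 cases (77.8%), against 13.6% of all genes. In RPTi against RPT 2 rose and 2 fell (22.2% each way), near the 20.4% and 21.1% of all genes. Asns, which makes asparagine, was at 246, 261 and 249 CPM in RP, 347, 356 and 362 in RPT and 347, 341 and 335 in RPTi. It rose 1.41-fold with thrombin (log2 fold change 0.49, SE 0.05, adjusted p = 1.32e-05) and did not pass between RPTi and RPT (-0.06, SE 0.05, adjusted p = 0.386), except with library totals alone and with limma on log2(FPKM + 1), where it was lower in RPTi (-0.13, adjusted p = 0.042 for the former). The serine pathway begins with Phgdh, at 228, 244 and 209.7 CPM in RP, 319, 367 and 293 in RPT and 295, 307 and 281 in RPTi, and goes on with Psat1. Psat1 was at 182, 192 and 184 CPM in RP, 235, 249.9 and 253 in RPT and 211, 202 and 204 in RPTi. Both rose with thrombin (log2 fold change 0.52, SE 0.08, adjusted p = 0.00046 for Phgdh, and 0.40, SE 0.05, adjusted p = 0.000131 for Psat1). Psat1 fell in RPTi against RPT (log2 fold change -0.26, SE 0.05, adjusted p = 0.00206). RPTi against RP did not pass for Psat1 (0.14, SE 0.05, adjusted p = 0.0717), except in 4 of 16 alternatives. They were DESeq2 (adjusted p = 0.0455), a replicate block (adjusted p = 0.0255), without RPT replicate 3 (adjusted p = 0.0396) and only those 2 groups (adjusted p = 0.0401). Psph, the last enzyme of the serine pathway, rose 1.60-fold with thrombin and did not pass in RPTi against RPT (log2 fold change 0.03, SE 0.10, adjusted p = 0.819).

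Shmt2, which passes one-carbon units from serine to folate in mitochondria, was at 285, 295 and 258 CPM in RP, 439, 492 and 419 in RPT and 387, 377 and 376 in RPTi. It had the largest thrombin rise of the synthesis genes (log2 fold change 0.69, SE 0.07, adjusted p = 1.16e-05) and fell in RPTi against RPT (log2 fold change -0.24, SE 0.07, adjusted p = 0.0131). Mthfd2, the next enzyme of that folate pathway, rose at both steps, by log2 fold changes of 0.34 (SE 0.05) and 0.20 (SE 0.05). The second did not pass with library totals alone (adjusted p = 0.051). Pycr1, which completes proline synthesis, had another pattern. It was at 45.2, 47.4 and 46.7 CPM in RP, 38.7, 45.999 and 42.5 in RPT and 85.3, 82.8 and 78.6 in RPTi. RP and RPT overlapped (log2 fold change -0.13, SE 0.07, adjusted p = 0.209), and RPTi was 1.94-fold above RPT (log2 fold change 0.96, SE 0.07, adjusted p = 4.25e-07). Cth, which makes cysteine, rose with thrombin (log2 fold change 0.53, SE 0.15, adjusted p = 0.0172), although RP and RPT libraries overlapped. The call was lost when RP replicate 1, RPT replicate 2 or RPT replicate 3 was left out (adjusted p = 0.0618, 0.0625 and 0.0644). Aldh18a1 passed in no contrast, with 14 to 37 counts in 8 libraries and 122 in RPTi replicate 3. Without RPTi replicate 2 it passed in RPTi against RP (log2 fold change 1.62, adjusted p = 0.0455), and without RPTi replicate 3 the value there was -0.18. Cbs had at most 6 counts in any library.

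Of the 7 amino acid transporter genes, 4 rose with thrombin, 3 rose in RPTi against RPT and 6 were higher in RPTi than in RP. These are 57.1%, 42.9% and 85.7%, against 13.6%, 20.4% and 11.9% of all genes. The leucine importer is a pair of a transport subunit, Slc7a5, and a heavy chain, Slc3a2. Slc7a5 was at 254, 269.7 and 248 CPM in RP, 408, 431 and 379 in RPT and 399, 402 and 392 in RPTi. It rose 1.58-fold with thrombin (log2 fold change 0.66, SE 0.06, adjusted p = 5.08e-06) and overlapped between RPT and RPTi (-0.03, SE 0.06, adjusted p = 0.719). Slc3a2 also rose with thrombin (log2 fold change 0.46, SE 0.07, adjusted p = 0.000244), as did the glutamine transporter gene Slc1a5 by 0.62 (SE 0.07) and the arginine and lysine transporter gene Slc7a1 by 0.50 (SE 0.06) on the log2 scale. Slc7a1 was slightly higher again in RPTi (log2 fold change 0.16, SE 0.06, adjusted p = 0.0361). In 9 of 16 alternatives it did not pass, with the highest adjusted p (0.193) under library totals alone. Among the 9 were the fits without RP replicate 1, RPT replicate 1, RPT replicate 3 or any of the 3 RPTi libraries. The serine and alanine transporter gene Slc1a4 and the glycine transporter gene Slc6a9 did not pass with thrombin (-0.01, SE 0.06, adjusted p = 0.885, and 0.14, SE 0.07, adjusted p = 0.139) but were higher in RPTi than in RPT, by 0.47 (SE 0.06) and 0.50 (SE 0.07) on the log2 scale. With a replicate block the thrombin difference of Slc6a9 passed (adjusted p = 0.0461). Slc38a2, an amino acid transporter gene well known to respond to amino acid shortage, passed in no contrast (-0.08, SE 0.07, adjusted p = 0.409 for RPTi against RP).

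The count of ATF4 arm genes that fell in RPTi against RPT, 3 in all (Stc2, Psat1 and Shmt2), was higher in some alternatives. It was 6 with library totals alone and 5 with limma on log2(FPKM + 1). With library totals alone 38.4% of all calls in that contrast were rises, against 49.2% with TMM, and for RPTi against RP the shares were 36.6% and 49.1%. The ATF4 arm counts of rises in the 3 contrasts stayed between 18 and 20, 10 and 13, and 24 and 25 when each library was left out in turn.

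The promoters of both arms were searched for the DNA elements through which these responses act. RefSeq promoter windows on the build GRCr8, which is not the build of the counts, cover 250 bases before to 50 after a gene's annotated start and were given for 39 of the 46 members. Both strands were searched for 4 elements. The first is the core of the ATF4-binding CARE element (TGATGNAA), and the others are the ER stress response element ERSE (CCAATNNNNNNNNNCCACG), ERSE-II (ATTGG, any 1 base, then CCACG) and the core of the XBP1-binding element UPRE (TGACGTGG). ERSE-II and UPRE share the letters CCACG, on opposite strands, and can overlap. The CARE core stood in 6 of 26 ATF4 arm windows (23.1%), 1 of 11 ER folding windows and 3.82% of all 27457 windows. ERSE stood in 5 of 11 ER folding windows (45.5%), in 0 of 26 ATF4 arm windows and in 0.0765% of all windows. ERSE-II was found in 2 ER folding windows (Herpud1 and Hyou1) and 0.0546% of all, and UPRE in 1 (Hyou1, overlapping an ERSE-II) and 0.637% of all. A match is a string of letters and no measured binding site, and these shares are descriptions without a test.

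Windows are shown for 7 genes described here that hold these elements, chosen as examples of each arm. They read 5′ to 3′ on the gene's strand, with the matches in capitals. For the ATF4 arm, Trib3 and Chac1 hold the CARE core on the opposite strand (bases -21 to -14 and -167 to -160 from the start). Pycr1 holds it on the gene's strand (-131 to -124).
Trib3 (chr3:161275484-161275783, minus strand): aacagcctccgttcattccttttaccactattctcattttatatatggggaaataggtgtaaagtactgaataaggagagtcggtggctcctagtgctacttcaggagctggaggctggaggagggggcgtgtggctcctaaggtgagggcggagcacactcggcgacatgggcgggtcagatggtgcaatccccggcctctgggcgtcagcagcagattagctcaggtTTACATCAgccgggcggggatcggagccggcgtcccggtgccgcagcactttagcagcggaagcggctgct
Chac1 (chr3:126795881-126796180, plus strand): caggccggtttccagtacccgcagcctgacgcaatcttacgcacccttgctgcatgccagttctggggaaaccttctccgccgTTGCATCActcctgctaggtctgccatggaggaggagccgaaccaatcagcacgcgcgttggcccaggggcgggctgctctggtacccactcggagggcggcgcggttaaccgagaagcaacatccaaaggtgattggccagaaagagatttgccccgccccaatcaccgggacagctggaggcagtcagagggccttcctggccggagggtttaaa
Pycr1 (chr10:106420763-106421062, minus strand): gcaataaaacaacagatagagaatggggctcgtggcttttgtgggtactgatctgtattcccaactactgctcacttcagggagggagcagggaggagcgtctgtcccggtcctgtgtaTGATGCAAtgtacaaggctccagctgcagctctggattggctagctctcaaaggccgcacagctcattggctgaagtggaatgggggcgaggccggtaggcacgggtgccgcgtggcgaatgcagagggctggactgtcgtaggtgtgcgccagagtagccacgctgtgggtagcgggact

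For the ER folding arm, Xbp1 and Hspa5 hold 1 ERSE each (-65 to -47 and -43 to -25). Calr holds 1 on the opposite strand (-232 to -214). Herpud1 holds both a CARE core, on the opposite strand (-184 to -177), and an ERSE-II (-124 to -114).
Xbp1 (chr14:84604373-84604672, plus strand): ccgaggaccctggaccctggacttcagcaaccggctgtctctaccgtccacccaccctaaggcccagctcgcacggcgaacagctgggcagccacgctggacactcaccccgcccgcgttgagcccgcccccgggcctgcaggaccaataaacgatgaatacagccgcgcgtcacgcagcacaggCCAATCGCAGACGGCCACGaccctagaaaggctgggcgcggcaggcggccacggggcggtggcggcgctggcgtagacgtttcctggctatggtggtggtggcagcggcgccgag
Hspa5 (chr3:38452766-38453065, plus strand): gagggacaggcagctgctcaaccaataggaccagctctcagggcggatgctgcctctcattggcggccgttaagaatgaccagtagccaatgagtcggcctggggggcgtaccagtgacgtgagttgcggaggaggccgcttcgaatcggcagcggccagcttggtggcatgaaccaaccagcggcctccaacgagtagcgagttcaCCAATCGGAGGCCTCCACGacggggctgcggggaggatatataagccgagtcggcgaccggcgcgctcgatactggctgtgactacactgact
Calr (chr19:40213117-40213416, plus strand): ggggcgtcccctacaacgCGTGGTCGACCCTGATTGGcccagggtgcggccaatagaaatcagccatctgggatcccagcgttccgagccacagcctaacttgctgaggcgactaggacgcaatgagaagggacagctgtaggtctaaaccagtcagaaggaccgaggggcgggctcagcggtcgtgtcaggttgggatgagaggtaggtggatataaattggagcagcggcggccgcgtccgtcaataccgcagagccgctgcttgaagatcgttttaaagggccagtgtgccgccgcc
Herpud1 (chr19:10614658-10614957, minus strand): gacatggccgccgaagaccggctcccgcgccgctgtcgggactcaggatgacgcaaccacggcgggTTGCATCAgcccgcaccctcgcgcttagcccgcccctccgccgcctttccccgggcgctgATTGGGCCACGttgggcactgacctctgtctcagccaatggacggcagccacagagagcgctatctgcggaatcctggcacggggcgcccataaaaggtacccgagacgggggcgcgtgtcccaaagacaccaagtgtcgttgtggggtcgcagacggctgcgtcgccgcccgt

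**Figure D4:**
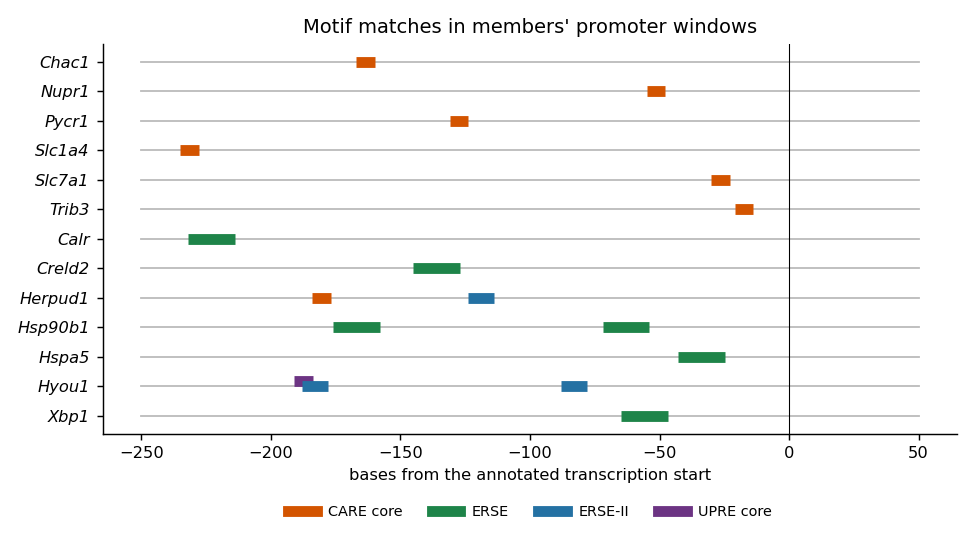
Positions of the matches in the 13 members' promoter windows that hold one, as bases from the annotated transcription start (horizontal axis, 0 marks the start), coloured by element. CARE cores lie in 6 ATF4 arm windows and in that of Herpud1, and ERSE matches lie in ER folding windows only among the members; Nupr1 has a window but no row in the expression table.

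In the ER folding arm, Xbp1, which drives chaperone and ER expansion genes, fell with thrombin and rose with the inhibitor. Its level was 142, 150.2 and 134 CPM in RP, 117, 122 and 109 in RPT and 176, 174 and 162 in RPTi, and no groups overlapped. The log2 fold change was -0.30, SE 0.07, adjusted p = 0.00444 for RPT against RP, and 0.56, SE 0.07, adjusted p = 1.95e-05 for RPTi against RPT. RPTi was also above RP (log2 fold change 0.26, SE 0.07, adjusted p = 0.0113), though not without RPTi replicate 1 (adjusted p = 0.0585). Calr, the most abundant member, followed the same order at 2008, 1984 and 1814 CPM in RP, 1586, 1601 and 1551 in RPT and 2159, 2314 and 2145 in RPTi. It fell 1.23-fold with thrombin (log2 fold change -0.29, SE 0.05, adjusted p = 0.00141) and was 1.40-fold higher in RPTi than in RPT (log2 fold change 0.48, SE 0.05, adjusted p = 1.35e-05). The summed level of the chondrocyte markers given above was likewise lowest in RPT and highest in RPTi, and its part in the ER folding values was not tested.

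The other 2 genes that fell with thrombin were Hyou1, an ER chaperone also induced by low oxygen (log2 fold change -0.17, SE 0.05, adjusted p = 0.0267), and the disulfide isomerase gene Pdia4 (log2 fold change -0.28, SE 0.08, adjusted p = 0.0257). Neither passed without RP replicate 1, without RPT replicate 1 or with only the RP and RPT libraries in the fit (highest adjusted p = 0.0997 for Hyou1 and 0.0995 for Pdia4). Hyou1 was also lost without RP replicate 2, and Pdia4 without RP replicate 3 or RPT replicate 2. In RPTi against RPT, Hyou1 rose (log2 fold change 0.52, SE 0.05, adjusted p = 5.69e-06), and Pdia4 did not pass (0.22, SE 0.08, adjusted p = 0.0522) except in 5 of 16 alternatives. Among these were DESeq2, a replicate block (adjusted p = 0.0167) and the fits without RP replicate 3 and without RPT replicate 3. The count of 4 falls was therefore 2 without RP replicate 1, without RPT replicate 1 and with only those 2 groups, namely Xbp1 and Calr, and 7 without RPT replicate 3. All 12 ER folding genes had a log2 fold change below 0 in RPT against RP, but 2 of them were at or just above it in other settings. Herpud1 was at 0.00 with library totals alone and on log2(FPKM + 1), and at 0.01 without RP replicate 2 and without RPT replicate 3. Sdf2l1 was at 0.01 without RP replicate 2.

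BiP itself (Hspa5) did not pass with thrombin in the fit used for all members, but did in some alternatives. Its level was 1194, 1123 and 1285 CPM in RP, 936, 902 and 1194 in RPT and 1212, 1164 and 1235 in RPTi, with RPT replicate 3 inside the range of RP and the other 2 RPT libraries below it (log2 fold change -0.25, SE 0.09, adjusted p = 0.0604). Its difference passed in 5 of 16 alternatives. They were DESeq2 (adjusted p = 0.0392), no filter on low counts, a replicate block (-0.26, adjusted p = 0.0062) and the fits without RP replicate 2 or RPT replicate 3. In the last the log2 fold change was -0.39 (adjusted p = 0.00062). Between RPTi and RP it did not pass (log2 fold change 0.00, SE 0.09, adjusted p = 0.982). The rise over RPT (log2 fold change 0.25, SE 0.09, adjusted p = 0.043) was lost in 8 of 16 alternatives, among them those without RP replicate 1, RPT replicates 1 or 2, or any RPTi library. GRP94 (Hsp90b1), the HSP90 of the ER, was at 979, 894 and 1078 CPM in RP, 808, 741 and 956 in RPT and 868, 830.5 and 899 in RPTi. Its groups overlapped and it passed in no contrast of the fit used for all members (-0.24, SE 0.09, adjusted p = 0.0663 for RPT against RP). However, its thrombin difference also passed in 5 of 16 alternatives, the same ones as for Hspa5. Its adjusted p was 0.00254 with the replicate block and 0.00552 without RPT replicate 3.

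Several smaller members were raised in RPTi without a thrombin call. Herpud1, which ties misfolded proteins to their degradation, was at 156, 162 and 148 CPM in RP, 154, 159 and 148 in RPT and 214, 222 and 219.9 in RPTi. RP and RPT overlapped (-0.02, SE 0.06, adjusted p = 0.859), and RPTi was 1.42-fold above RPT (log2 fold change 0.51, SE 0.06, adjusted p = 1.31e-05). Sdf2l1, a BiP partner, was at 19.0, 20.0 and 15.2 CPM in RP, 16.9, 18.5 and 16.6 in RPT and 26.3, 27.9 and 25.4 in RPTi, with the same order (log2 fold change 0.61, SE 0.10, adjusted p = 0.000338 for RPTi against RPT). Manf, a secreted factor retained in the ER by BiP, also rose in that contrast (log2 fold change 0.33, SE 0.08, adjusted p = 0.00338).

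The remaining ER folding genes, Dnajb9, Creld2 and Edem1, passed in no contrast with all 9 libraries and no replicate block. With the block, Dnajb9 and Creld2 passed in RPTi against RPT (adjusted p = 0.0113 and 0.0451). The BiP cochaperone gene Dnajb9 was at 33.1, 29.1 and 35.7 CPM in RP, 31.2, 23.8 and 32.8 in RPT and 34.6, 32.7 and 36.6 in RPTi. Creld2, a disulfide isomerase-like ER protein, was at 45.7, 52.4 and 44.3 CPM in RP, 44.4, 45.999 and 44.4 in RPT and 51.6, 52.1 and 46.7 in RPTi. Both had overlapping RP and RPT libraries (-0.16, SE 0.11, adjusted p = 0.337, and -0.08, SE 0.08, adjusted p = 0.497). Edem1, which extracts misfolded glycoproteins, stood at -0.17 (SE 0.07) in RPT against RP and 0.10 (SE 0.07) in RPTi against RPT on the log2 scale. Without RPT replicate 3, Edem1 passed in both (-0.25, adjusted p = 0.00966, and 0.18, adjusted p = 0.0352). Dnajb9 then passed in RPTi against RPT (0.33, adjusted p = 0.0454). In RPTi against RPT all 12 members lay above 0, but Hsp90b1 was at -0.02 with library totals alone, -0.01 on log2(FPKM + 1) and -0.03 without RPT replicate 2. Leaving out each library in turn gave 6 to 10 rises there and 4 to 6 in RPTi against RP. In the latter, Calr and Manf did not pass with library totals alone, on log2(FPKM + 1), without RP replicate 3 or without RPTi replicate 2. Calr was also lost without RPTi replicate 1, and Manf without RP replicate 1.

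**Figure D5:**
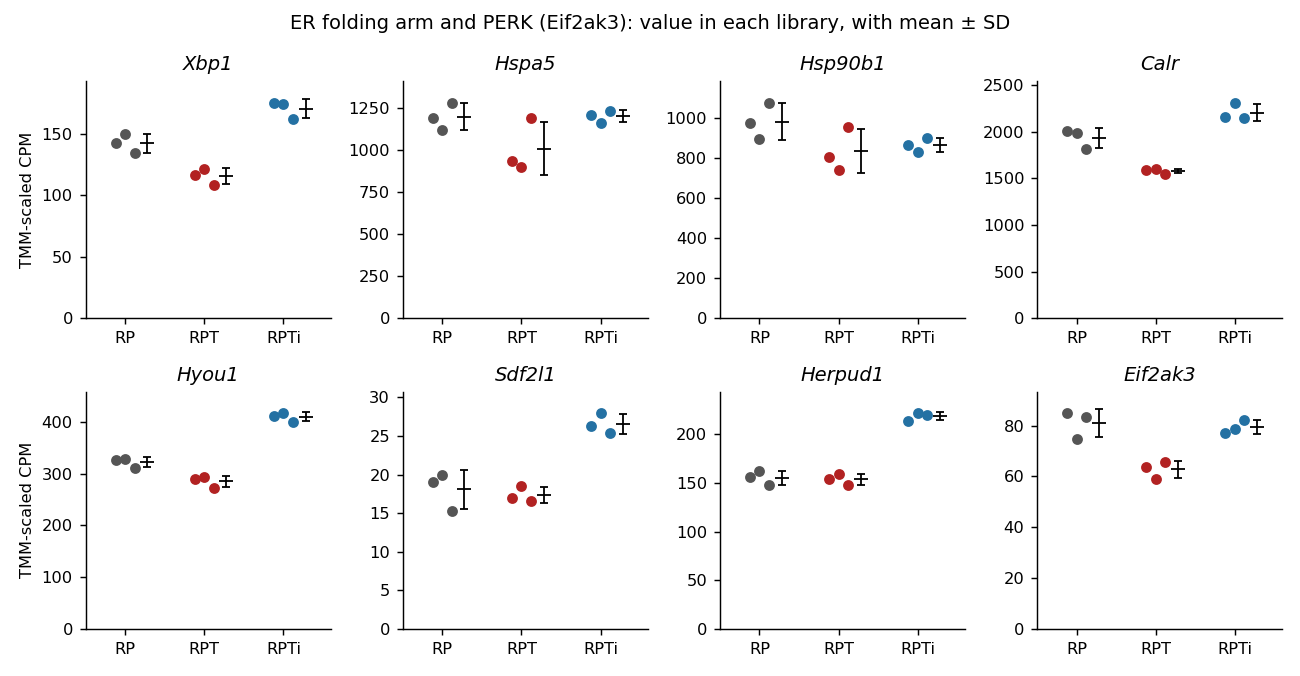
TMM-scaled CPM (vertical axis, from 0) of 7 ER folding arm genes and of the sensor Eif2ak3 in each library (points), with the mean and SD of each group in black. Xbp1, Calr, Hyou1 and Eif2ak3 are lowest in RPT, and for Hspa5 RPT replicate 3, at 1194 CPM, lies apart from the other RPT libraries.

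The 4 sensors differed in direction. PERK (Eif2ak3) was at 84.9, 74.6 and 83.6 CPM in RP, 63.6, 59.2 and 65.7 in RPT and 77.1, 78.9 and 82.4 in RPTi, so RPT lay below both other groups. It fell with thrombin (log2 fold change -0.37, SE 0.07, adjusted p = 0.00176), rose in RPTi against RPT (log2 fold change 0.34, SE 0.07, adjusted p = 0.00187) and did not pass between RPTi and RP (-0.03, SE 0.07, adjusted p = 0.8). GCN2 (Eif2ak4) was at 39.3, 32.7 and 38.6 CPM in RP, 33.4, 30.4 and 31.2 in RPT and 24.4, 27.6 and 29.1 in RPTi. It was lower in RPTi than in RP (log2 fold change -0.45, SE 0.09, adjusted p = 0.00347), the only member to fall in that contrast. With all libraries, TMM and no replicate block it passed at neither single step. The block made it pass in RPTi against RPT (-0.23, adjusted p = 0.0447). Without RP replicate 2 it passed at both (adjusted p = 0.0288 and 0.0445), and with library totals alone in RPTi against RPT (adjusted p = 0.0234).

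IRE1 (Ern1) was at 49.7, 52.3 and 52.2 CPM in RP, 57.3, 58.4 and 59.0 in RPT and 73.5, 63.5 and 69.2 in RPTi. It did not pass with thrombin (log2 fold change 0.18, SE 0.07, adjusted p = 0.0633), except in 3 of 16 alternatives. They were library totals alone, DESeq2 and a replicate block, where its adjusted p was at most 0.0412. It rose in RPTi against RPT (log2 fold change 0.24, SE 0.07, adjusted p = 0.0125), a call lost with library totals alone, on log2(FPKM + 1) and without RPTi replicate 1 (highest adjusted p = 0.0962). It was higher in RPTi than in RP (0.42, SE 0.07, adjusted p = 0.000676). Atf6 rose with thrombin (log2 fold change 0.24, SE 0.08, adjusted p = 0.0296) and did not pass between RPTi and RPT (log2 fold change 0.02, SE 0.08, adjusted p = 0.877). Its thrombin call was lost without RP replicates 1 or 2 or RPT replicates 1 or 3 (highest adjusted p = 0.0918). Its call in RPTi against RP (0.26, SE 0.08, adjusted p = 0.0249) was lost in 6 of 16 alternatives, among them those without RP replicates 1 or 2 or RPTi replicates 1 or 3.

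Other genes of these pathways were listed by name, with earlier results of these data known, and counted in the same fit. Their counts are therefore no independent check of the arms. Of 17 tested cytosolic aminoacyl-tRNA synthetase genes, many of them known ATF4 targets, 10 rose with thrombin (58.8%, against 13.6% of all genes) and none fell (against 15.2%). Those that rose included Yars1 (0.57 (SE 0.06)), Mars1 (0.44 (SE 0.06)) and Sars1 (0.52 (SE 0.07)) on the log2 scale. In RPTi against RPT 5 fell (29.4%, against 21.1% of all genes) and none rose (against 20.4%). The falls included Nars1 (-0.26 (SE 0.07)) and Tars1 (-0.22 (SE 0.08)). In RPTi 7 were higher than in RP (41.2%, against 11.9% of all genes) and none lower (against 12.3%). Their median log2 fold change was 0.27, -0.12 and 0.16 in the 3 contrasts.

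Of 23 other ATF4 and amino acid response genes, 9 rose with thrombin (39.1%, against 13.6% of all genes) and none fell (against 15.2%). Those that rose included the mitochondrial folate enzyme gene Mthfd1l (0.57 (SE 0.06)), the arginine transporter gene Slc7a3 (0.58 (SE 0.08)) and the branched-chain aminotransferase gene Bcat1 (0.28 (SE 0.05)). In RPTi against RPT 7 rose and 7 fell, 30.4% each way against 20.4% and 21.1% of all genes. The hormone gene Fgf21, secreted under stress, averaged 0.286 ± 0.0753 CPM (SD, n = 3) with thrombin and 2.93 ± 0.894 CPM (SD, n = 3) with the inhibitor added (log2 fold change 3.33, SE 0.33, adjusted p = 4.1e-06). The AP-1 repressor gene Jdp2 (0.96 (SE 0.07)) and the mitochondrial folate gene Aldh1l2 (0.66 (SE 0.06)) rose too, and the stress cytokine gene Gdf15 was higher in RPTi than in RP (1.23 (SE 0.14)). Those that fell in RPTi against RPT included Cebpb (-0.79 (SE 0.12)), Shmt1 (-0.62 (SE 0.08)) and Mthfd1l (-0.39 (SE 0.06)). Against RP, 11 were higher in RPTi (47.8%, against 11.9% of all genes) and 3 lower (13.0%, near the 12.3% of all genes). The 3 were Got1, Shmt1 and Eif2s1.

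Of 38 other ER folding and degradation genes, 1 rose and 13 fell with thrombin (2.63% and 34.2%, against 13.6% and 15.2% of all genes). In RPTi against RPT 17 rose and 2 fell (44.7% and 5.26%, against 20.4% and 21.1% of all genes). Creb3l2, an ER-bound factor that drives secretion genes in chondrocytes, fell with thrombin (log2 fold change -0.39, SE 0.05, adjusted p = 7.69e-05) and rose in RPTi against RPT (log2 fold change 0.69, SE 0.05, adjusted p = 2.05e-07). Sec24d, a coat subunit of the vesicles that leave the ER, fell with thrombin (-0.45 (SE 0.07)), as did Txndc11 (-0.49 (SE 0.07)). The ER oxidase gene Ero1a was the 1 that rose with thrombin (0.30 (SE 0.08)) and was among the 2 that fell in RPTi against RPT (-0.47 (SE 0.08)), with Dnajc10 (-0.29 (SE 0.09)). Selenos, of the ER degradation machinery, rose in RPTi against RPT (0.71 (SE 0.06)). Against RP, 10 were higher in RPTi and 1 lower (26.3% and 2.63%, against 11.9% and 12.3% of all genes). Among the former were the collagen-folding subunit gene P4hb (0.33 (SE 0.05)) and Wfs1 (0.60 (SE 0.09)).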

How the data were processed

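Counts per Ensembl rat gene and FPKM came from 1 table that the authors deposited for 9 poly-A selected libraries. The submitters' processing notes name the build Rnor_6.0, HISAT2, HTSeq 0.11.2 and DESeq2 1.26.0, without roles. The sources used here do not give the annotation release, filters or strand setting. Per the labels the kit was NEBNext Ultra RNA, which does not mark strand, so reads of overlapping or antisense genes cannot be told apart. The FPKM the authors deposited could be recomputed from the counts with a whole-number length per gene (relative tolerance 1e-06).

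The count model was edgeR 4.0.16 (R 4.3.3) quasi-likelihood, run on the 9 libraries together (groups as factor), with TMM factors and the 13856 genes kept by filterByExpr (minimum count 10, minimum total 15). Adjusted p-values are Benjamini-Hochberg over all tested genes, with a threshold of 0.05. SE is the size of a fold change over the root of F, and CPM are TMM-scaled. The script was tested on simulated data. Totals make 1 count worth 0.0227 to 0.0314 CPM. Groups and replicate numbers came from the titles. Alternatives were other scalings, no filter, DESeq2 1.42.0, limma 3.58.1 on log2(FPKM + 1), a replicate block, the 2 groups compared alone and each library left out.

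Of 159 listed symbols 134 matched by symbol and 17 by an older symbol, and 8 matched none. Promoter windows are RefSeq's (GRCr8, the first per gene). The members, lists, arms and elements were chosen with earlier results of these data known. Per-library values are given for 19 members fixed by name and for the 3 largest called rises and falls of each contrast. From each list of other pathway genes, at most 3 called genes per direction and contrast with the smallest p are named, and 1 gene that this rule selects is not reported here.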

Additional observations from a re-analysis of the deposited data

How the results depend on the processing

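No called member changed direction under any of the 16 alternatives. Of 2112 comparisons of a member's value with an alternative, 1995 kept their side of the threshold, 60 no longer passed and 57 newly passed. In 37 a value called in neither fit changed sign, the largest of them at 0.08 on the log2 scale apart from Aldh18a1, which turned to -0.66 in RPTi against RPT and -0.18 in RPTi against RP without RPTi replicate 3. Calls kept under every alternative were 17 of 20 ATF4 arm rises in RPT against RP, 9 of 11 rises and 3 of 3 falls in RPTi against RPT, and 24 of 24 rises in RPTi against RP. For the ER folding arm they were 2 of 4 falls, 6 of 7 rises and 3 of 6 rises.

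ATF4 arm falls in RPTi against RPT numbered 6 with library totals alone, 5 on log2(FPKM + 1) and 5 with a replicate block, and 3 to 4 when libraries were left out. ER folding falls in RPT against RP numbered 2 with only the 2 groups compared and 2 to 7 when libraries were left out. For these shifts the cause was not tested, except that fewer libraries enter the last 2 fits. With the replicate block 1 ER folding gene, Hsp90b1, fell in RPTi against RP (-0.18, adjusted p = 0.0138). The block also made calls in RPT against RP of Hspa5 (-0.26, adjusted p = 0.0062) and Hsp90b1 (-0.24, adjusted p = 0.00254), and in RPTi against RPT of Dnajb9 (adjusted p = 0.0113) and Creld2 (adjusted p = 0.0451). The replicate numbers were not treated as pairs: deviations of same-numbered libraries correlated at -0.114 to 0.124, above 0.1 in 2 of 9 pairs, and 3 of 9 libraries correlated best with their own number. Over all genes, however, the block gave more calls in each contrast. They numbered 2514 rises and 2560 falls in RPT against RP (1886 and 2113 without it). In RPTi against RPT they numbered 3255 and 3443 (2825 and 2920), and in RPTi against RP 2333 and 2356 (1647 and 1705). Some ER chaperone genes also ordered the libraries by number in every group, as described below. The cause of the added calls was not tested. The members differing among the 3 groups numbered 34 to 40 against 36 when libraries were left out. Counts were few for Aldh18a1 (14 to 122 a library) and Cbs (0 to 6).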

Other observations

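Some ER chaperone genes ordered the libraries alike in every group, a pattern noticed after the values were seen and given without a test. Hspa5, Hsp90b1 and Dnajb9 had their highest value in replicate 3 and their lowest in replicate 2 in each of RP, RPT and RPTi. Calr and Xbp1 had their lowest value in replicate 3 in all 3 groups. In RPT replicate 3, Pdia4 stood at 457 CPM and Edem1 at 135 CPM, against 374 and 355 CPM for Pdia4 and 119 and 114 CPM for Edem1 in the other RPT libraries.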
